A study of Mus musculus with 5 samples.

Results

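Foxc1, Foxc2, Lmx1b, Tfap2b, Twist1 and Prrx1 encode transcription factors of the periocular mesenchyme, the tissue from which much of the front of the eye is built. The 6 genes were taken by name from the 56941 genes of the count table, and all 6 were among the 19713 genes that could be tested. Their RNA was measured in the iridocorneal angle, the ring of tissue between iris and cornea that holds the trabecular meshwork and the drainage vessels of the eye. DBA/2J mice, which lack functional Gpnmb and carry the Tyrp1 b pigment allele, develop pigment dispersion and glaucoma. Gpnmb+ mice (DBA/2J-Gpnmb+/SjJ) have the same background and the same Tyrp1 allele with functional Gpnmb restored, so the comparison is between genotypes and both groups carry the Tyrp1 mutation. All mice were 12 months old and untreated. There were 3 DBA/2J pools and 2 Gpnmb+ pools, and each pool joined the tissue of several mice, so that a pool, not a mouse, was the replicate. The study used males and females in both groups, and the labels give no sex for a single pool. Iris and ciliary body were dissected away, with some remnants left.

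During development, cells of the neural crest and of the mesoderm move between the lens and the surface ectoderm and form the corneal stroma and endothelium, the trabecular meshwork and the stroma of the iris. FOXC1 mutations cause Axenfeld-Rieger malformations of the angle, LMX1B mutations cause nail-patella syndrome with glaucoma, and loss of AP-2β (Tfap2b) from neural crest leaves mice with malformed anterior segments. TWIST1 and PRRX1 act in the mesenchyme of the head and limbs, and FOXC2 acts in vessels and eyelids. Whether the adult angle of glaucomatous mice holds the same RNA of these factors as the angle of control mice is the question the comparison answers.

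Between 43900661 and 49837758 reads per pool were counted on genes. Gpnmb, the gene that separates the strains, gave 2042, 2234 and 1946 reads in DBA/2J against 129659 and 110568 in Gpnmb+. Sex-linked RNA also separated the groups. Xist, which females transcribe from the inactive X, gave 596, 0 and 2417 reads in DBA/2J against 7843 and 9152 in Gpnmb+, whereas Ddx3y on the Y chromosome gave 3608, 4168 and 1567 reads against 0 and 4. The Gpnmb+ pools therefore held next to no Y-linked RNA although males are given among the Gpnmb+ mice, and in these libraries genotype and sex cannot be told apart. All differences given below rest on those pools.

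All 6 factors had lower mean levels in DBA/2J, and 2 of them, Lmx1b and Tfap2b, passed the test. A gene was called at a Benjamini-Hochberg adjusted p of at most 0.05 in edgeR's quasi-likelihood test across all tested genes together with a fold change of at least 1.5, and by that rule 0.294% of all tested genes were called lower. None of the 6 was called higher, against 0.502% of all tested genes. DESeq2's Wald test gave the same count, 2 lower and 0 higher, with 1.94% and 2.76% of all tested genes called. So did edgeR's p-values without adjustment, with 4.48% and 4.2% called. That last count could not differ, because Lmx1b and Tfap2b could not lose their calls and the others had fold changes below 1.5. In 5 of the 6, every DBA/2J pool lay below both Gpnmb+ pools, an order found in 17.2% of all tested genes, while the groups did not overlap, in either direction, for 34.5%. The log2 fold change of DBA/2J over Gpnmb+ was below 0 for 6 of 6 factors and for 52.6% of all tested genes, and its median was -0.53 over the 6 and -0.02 over all tested genes. In bulk tissue, fewer cells that express a gene and less of its RNA per cell cannot be told apart.

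**Figure D1:**
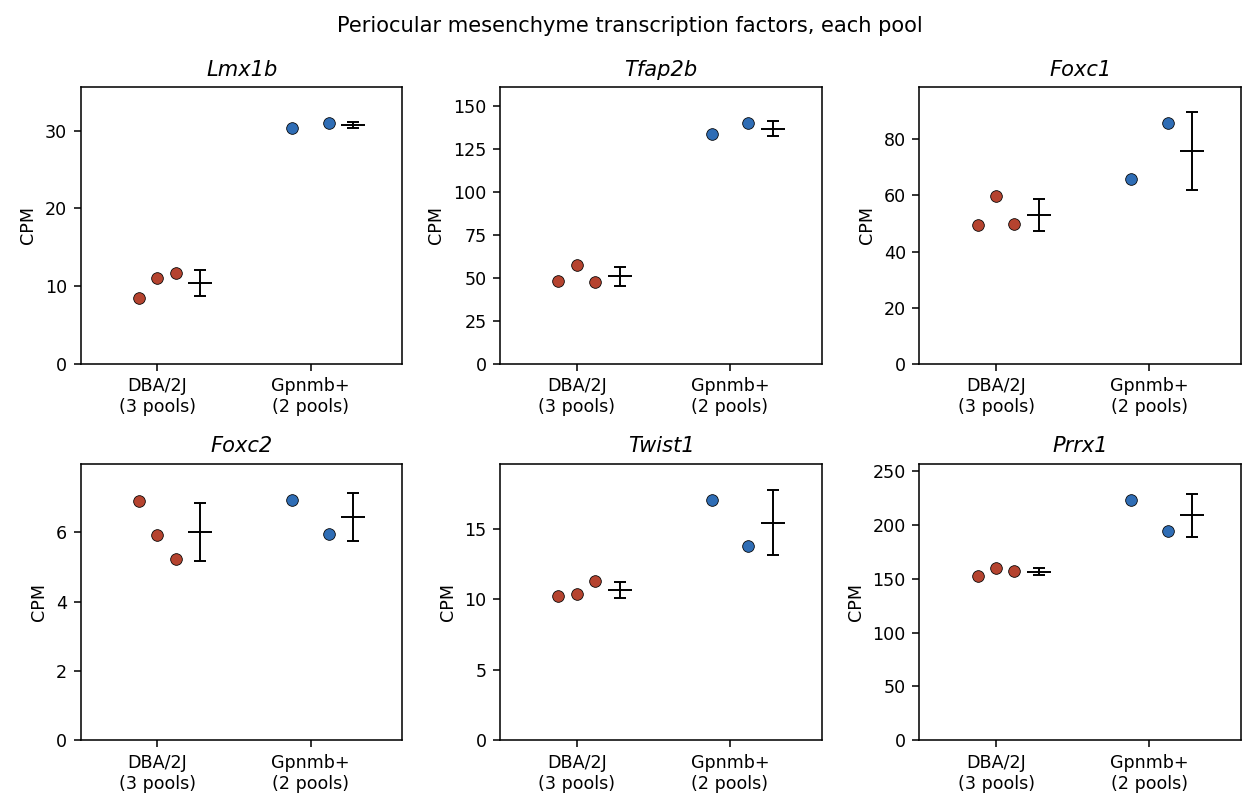
Levels in CPM (counts scaled to library size, linear axes from 0) of the 6 transcription factors in each pool, with DBA/2J in red and Gpnmb+ in blue; dots are pools, and the bar beside them is the mean with its SD. The groups lie far apart for Lmx1b (10.4 against 30.7 CPM) and Tfap2b (50.8 against 137 CPM), lie closer for Foxc1, Twist1 and Prrx1, and overlap for Foxc2.

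Lmx1b (ENSMUSG00000038765), a LIM-homeodomain factor, had the largest difference of the 6 on the log2 scale. The DBA/2J pools 1 to 3 held 376, 473 and 521 of its reads, against 1544 and 1515 in Gpnmb+ pools 1 and 2. The Gpnmb+ pools were nearly equal, the DBA/2J pools spread more widely, and the lowest Gpnmb+ pool lay 1.38 log2 units above the highest DBA/2J pool. In CPM (counts scaled to library size) the means were 10.4 ± 1.70 (SD, n = 3) and 30.7 ± 0.383 (SD, n = 2), so DBA/2J held 33.8% of the Gpnmb+ level. The log2 fold change was -1.56 (SE 0.16, 95% interval -1.94 to -1.18) with an adjusted p of 0.0262 in edgeR. Among all tested genes it was the gene of rank 326 by the size of its fall and of rank 37 by p-value. The call was lost without DBA/2J pool 1, 2 or 3 or Gpnmb+ pool 2, where the log2 fold change was -1.43, -1.61, -1.66 and -1.55 and the edgeR adjusted p 0.0885, 0.0973, 0.0757 and 0.110. It held without Gpnmb+ pool 1.

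Tfap2b (ENSMUSG00000025927, chr1:19279138-19309069), which encodes AP-2β, had 2134, 2452 and 2113 reads in DBA/2J against 6774 and 6833 in Gpnmb+. Again no DBA/2J pool came near a Gpnmb+ pool, and the pools within each genotype lay close together. The means were 50.8 ± 5.46 CPM (SD, n = 3) and 137 ± 4.37 CPM (SD, n = 2), and the DBA/2J level was 37.2% of the Gpnmb+ level. The log2 fold change was -1.43 (SE 0.11, 95% interval -1.69 to -1.17) with an adjusted p of 0.0189 in edgeR, and the gene held rank 408 by the size of its fall and rank 10 by p-value. Without DBA/2J pool 1, 2 or 3 or Gpnmb+ pool 2 the log2 fold change was -1.39, -1.52, -1.38 and -1.39, and the edgeR adjusted p rose to 0.0885, 0.0714, 0.0627 and 0.0991. Without Gpnmb+ pool 1 the call held. An antisense noncoding gene, Gm71158, shares 433 exon bases with Tfap2b, and since the strand used for counting is not given in the sources used here, reads of the pair could not be told apart.

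With the Xist level of each pool as a covariate, edgeR called 0 of the 19713 genes, of which 764 had an unadjusted p under 0.05, and the log2 fold change was -1.12 (SE 0.60) for Lmx1b and -1.80 (SE 0.42) for Tfap2b. Within DBA/2J the pool with the most Xist RNA, pool 3, had the highest Lmx1b level (11.7 CPM) and the lowest Tfap2b level (47.4 CPM). Across the DBA/2J pools Lmx1b did not follow the order of Xist, whereas Tfap2b ran in the reverse order. Pool 2, with 0 Xist reads, lay close to pool 3 in Lmx1b and above pool 1 (8.46 CPM). Tfap2b was highest in pool 2 (57.1 CPM) and fell as Xist rose, although pools 1 and 3 were nearly equal. These orders over 3 pools were not tested. The part of sex in either difference was not tested beyond the fit with the Xist covariate.

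The 250 bases before the RefSeq start of Lmx1b and of Tfap2b are shown because these were the genes that fell and because both windows held the same short motif. They come from RefSeq's promoter table (build GRCm38.p6), in which 5 of the 6 genes had an entry and Foxc2 had none, and each was found at a single place in GRCm39, at chr2:33531111-33531360 on the minus strand for Lmx1b and at chr1:19282028-19282277 on the plus strand for Tfap2b. Capitals mark the E-box, CANNTG, the class of site that TWIST1 and other basic helix-loop-helix factors bind.
Lmx1b: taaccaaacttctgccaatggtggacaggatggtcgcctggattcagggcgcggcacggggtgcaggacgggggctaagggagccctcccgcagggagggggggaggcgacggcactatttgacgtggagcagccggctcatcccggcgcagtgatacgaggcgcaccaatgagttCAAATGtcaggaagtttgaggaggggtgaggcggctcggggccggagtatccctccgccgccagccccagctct
Tfap2b: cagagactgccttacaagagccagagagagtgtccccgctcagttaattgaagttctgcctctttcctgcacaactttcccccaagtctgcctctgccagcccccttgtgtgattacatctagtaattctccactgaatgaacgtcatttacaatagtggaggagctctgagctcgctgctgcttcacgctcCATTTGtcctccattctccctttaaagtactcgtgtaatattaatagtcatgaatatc
The Lmx1b window held CAAATG, beginning 74 bases before the RefSeq start. The Tfap2b window held its reverse complement CATTTG, beginning 58 bases before the RefSeq start. In GENCODE, Tfap2b begins further upstream, at chr1:19279138, so its window lies inside the annotated gene. The windows of Foxc1, Twist1 and Prrx1 held no E-box. An E-box of any kind was present in 66.2% of the 32851 promoter windows of this length. CAAATG, the word that both windows held, was present on either strand in 12.0%. The sharing of this word was not tested. The windows differed in composition. Lmx1b had 65.2% G+C and 19 CpG dinucleotides, Tfap2b had 46.4% and 5, and the medians over all windows were 52.4% and 6. In GRCm39 the Prrx1 window lies whole, 250 of 250 bases, in an annotated exon of Prrx1, and 13 bases of the Foxc1 window and 25 of the Twist1 window are exonic. Other motifs were searched on both strands. The AP-2 site GCCNNNGGC, held by 13.7% of all windows, occurred in the Foxc1 window. The homeodomain site TAATTA, held by 4.84%, occurred in the Prrx1 window. The word TATAAA, held by 12.4%, occurred in the Twist1 window, beginning 126 bases before the RefSeq start. The forkhead site TGTTTAC, held by 3.17%, occurred in none of the 5 windows.

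Lmx1b shares its promoter region with a noncoding RNA that was also lower in DBA/2J. C130021I20Rik, a long noncoding RNA on the opposite strand (GRCm39 chr2:33531205-33556659), starts 112 bases from the start of Lmx1b (chr2:33450977-33531093) and runs away from it, and no exon bases are shared. Its first exon covers 156 bases of the Lmx1b window above, and the E-box lies between the starts. C130021I20Rik had 720, 759 and 870 reads in DBA/2J against 2161 and 2094 in Gpnmb+. As for Lmx1b, the Gpnmb+ pools were nearly equal and DBA/2J pool 3 was the highest of its group. The means were 17.8 ± 1.66 CPM (SD, n = 3) and 42.7 ± 0.154 CPM (SD, n = 2), or 41.7% of the Gpnmb+ level, with a log2 fold change of -1.26 (SE 0.11, adjusted p = 0.0221 in edgeR). Without DBA/2J pool 1, 2 or 3 or Gpnmb+ pool 2 the adjusted p rose to between 0.0521 and 0.107, with log2 fold changes from -1.33 to -1.20, and with the Xist covariate the log2 fold change was -0.86 (SE 0.40) and not called. This gene was looked up by its position and chosen for description after its values were seen. Of 9 annotated genes within 5 kb of any of the 6 factors, 6 were in the count table and 2 passed the count minimum.

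The other of these was Gm11379, a noncoding RNA transcribed in the direction of Foxc1 whose span encloses Foxc1 (chr13:31990616-31996459) without sharing exon bases. It had 5, 4 and 5 reads in DBA/2J against 26 and 17 in Gpnmb+, all low, with a log2 fold change of -1.99 (SE 0.43) and an adjusted p of 0.107 in edgeR, so it was not called. Prrx1 overlaps Gm20471, an antisense gene with 0 counts in every pool.

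**Figure D2:**
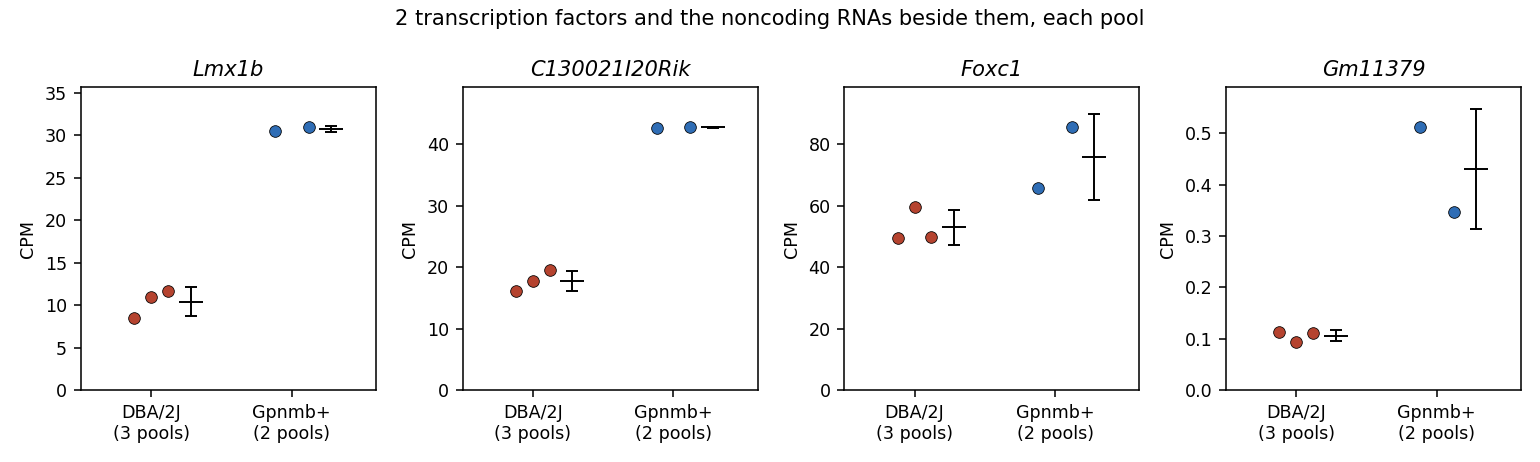
Levels in CPM (linear axes from 0) of Lmx1b and Foxc1 and of the noncoding RNAs beside them, in each DBA/2J pool (red) and Gpnmb+ pool (blue), with the mean and SD beside the dots. C130021I20Rik (17.8 against 42.7 CPM) was lower in all 3 DBA/2J pools, as Lmx1b was, while Gm11379 reached at most 0.512 CPM.

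Foxc1 (ENSMUSG00000050295), a forkhead factor, had 2204, 2563 and 2227 reads in DBA/2J against 3347 and 4194 in Gpnmb+. The groups did not overlap, but Gpnmb+ pool 2 stood well above pool 1. The means were 53.1 ± 5.75 CPM (SD, n = 3) and 75.9 ± 14.0 CPM (SD, n = 2), and the DBA/2J level was 70.0% of the Gpnmb+ level. The log2 fold change was -0.52 (SE 0.15, 95% interval -0.87 to -0.16, adjusted p = 0.175 in edgeR), and leaving out Gpnmb+ pool 1 or 2 gave -0.69 or -0.31. The fall was thus not called, and its size depended on which Gpnmb+ pool was kept.

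Foxc2 (ENSMUSG00000046714), the closest relative of Foxc1 and a regulator of lymphatic and venous valves, was alone among the 6 in showing overlapping groups. It had 307, 254 and 233 reads in DBA/2J against 352 and 291 in Gpnmb+ (chr8:121842910-121845634). DBA/2J pool 1 lay between the Gpnmb+ pools in CPM. The means were 6.02 ± 0.845 CPM (SD, n = 3) and 6.44 ± 0.699 CPM (SD, n = 2), and the log2 fold change was -0.10 (SE 0.18, 95% interval -0.54 to 0.34, adjusted p = 0.833 in edgeR). Without Gpnmb+ pool 1 its sign turned, to 0.019, and with the Xist covariate it was -0.92 (SE 0.65).

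Twist1, a basic helix-loop-helix factor of cranial mesenchyme (ENSMUSG00000035799, chr12:34007645-34009828), had 456, 445 and 504 reads in DBA/2J against 866 and 676 in Gpnmb+. The DBA/2J pools lay together below both Gpnmb+ pools, of which pool 1 was the higher. The means were 10.6 ± 0.572 CPM (SD, n = 3) and 15.4 ± 2.30 CPM (SD, n = 2), or 68.9% of the Gpnmb+ level, with a log2 fold change of -0.54 (SE 0.14, 95% interval -0.87 to -0.20, adjusted p = 0.147 in edgeR).

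Prrx1, a paired-related homeodomain factor of mesenchyme (ENSMUSG00000026586, chr1:163041844-163142033), had the most reads of the 6, with 6799, 6858 and 6998 reads in DBA/2J against 11327 and 9523 in Gpnmb+. Its DBA/2J pools differed little, and again Gpnmb+ pool 1 was the highest. The means were 157 ± 3.43 CPM (SD, n = 3) and 209 ± 20.2 CPM (SD, n = 2), or 74.9% of the Gpnmb+ level, with a log2 fold change of -0.42 (SE 0.09, 95% interval -0.64 to -0.20, adjusted p = 0.110 in edgeR). For Foxc1, Twist1 and Prrx1 the adjusted p-values by DESeq2's Wald test were 0.0439, 0.0268 and 0.00358, under the p-value threshold but with fold changes below 1.5, so they were not called by either tool.

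The order of the factors by level differed between genotypes when counts were divided by gene length. In Gpnmb+ angle Tfap2b was the highest, at 20.7 ± 0.662 CPM per kb of merged exons (SD, n = 2). It was followed by Foxc1 at 13.0 ± 2.39, Prrx1 at 12.6 ± 1.22, Twist1 at 9.34 ± 1.39, Lmx1b at 5.63 ± 0.0703 and Foxc2 at 2.36 ± 0.256 CPM per kb, and only Foxc1 and Prrx1 were neighbours in this order that lay within their spread. In DBA/2J angle Prrx1 led at 9.46 ± 0.207 CPM per kb (SD, n = 3), with Foxc1 at 9.08 ± 0.984, Tfap2b at 7.69 ± 0.826, Twist1 at 6.44 ± 0.346, Foxc2 at 2.21 ± 0.310 and Lmx1b at 1.91 ± 0.312 CPM per kb. Prrx1 and Foxc1, Foxc1 and Tfap2b, and Foxc2 and Lmx1b were each within their SDs of one another. Tfap2b thus moved from above Foxc1 and Prrx1 to a level not above either, and Lmx1b from above Foxc2 to the level of Foxc2. These are descriptions with no test. The place of Prrx1 depended on the length used, because its merged exons span 16550 bases and its longest annotated transcript 7323 bases. Per kb of longest transcript Prrx1 was the highest in both genotypes, at 28.5 CPM per kb in Gpnmb+ and 21.4 CPM per kb in DBA/2J, above Tfap2b at 23.3 CPM per kb in Gpnmb+.

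**Figure D3:**
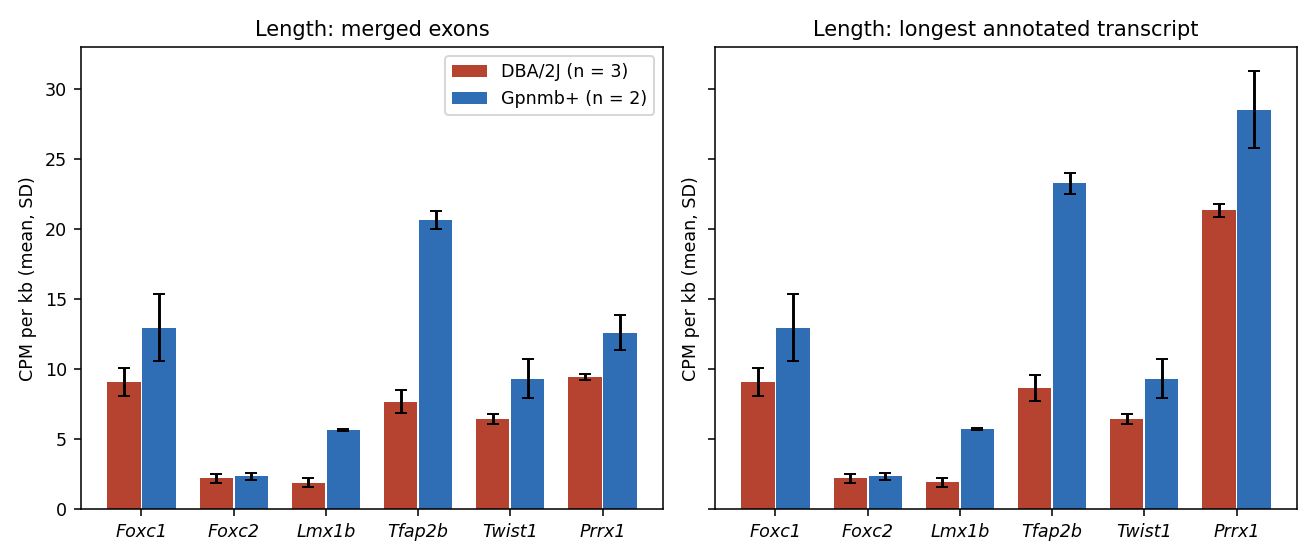
Mean level of each factor in CPM per kb (bars from 0, error bars SD; red, 3 DBA/2J pools; blue, 2 Gpnmb+ pools), with length taken from merged exons at left and from the longest annotated transcript at right. In Gpnmb+ Tfap2b is the highest bar by merged exons (20.7) and Prrx1 by longest transcript (28.5), and in DBA/2J Lmx1b (1.91 by merged exons) is no higher than Foxc2.

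The genes whose pattern over the 5 pools lay closest to each factor were found among 12680 genes with a mean log2 CPM of at least 2, by the distance between log2 CPM values centred on each gene's mean. For Lmx1b they were Hs3st3a1, a heparan sulfate sulfotransferase (distance 0.227), Zdhhc20, a palmitoyltransferase (0.259), and Lsamp, an adhesion protein (0.294). For Tfap2b they were Mgarp, a mitochondrial protein (0.255), Lsamp again (0.313) and Tmem178 (0.323). All 5 were called lower, which the choice by likeness to called genes makes likely. For Foxc1 they were Krt7, a keratin of epithelia (0.0619), Tmprss11f and Rdh16, and for Foxc2 they were Uchl5 (0.0498), Rbbp8 and Pabpc1. For Twist1 they were Usp49 (0.129), Lynx1 and Csrp2, and for Prrx1 they were Cdpf1 (0.0692), Spats2l and Cep70. None of these 12 was called. Within the set, Twist1 and Prrx1 lay closest to each other (0.183) and Lmx1b and Tfap2b lay at 0.388, while Foxc2 and Lmx1b lay farthest apart (1.74).

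Of 28 further transcription factors of the periocular mesenchyme, 27 were tested, and 18 had log2 fold changes below 0 and 9 above. In edgeR and limma-voom 2 were called lower, Alx4 among them, and none higher. Without adjustment of the p-value 5 were called lower and 2 higher, and with DESeq2's Wald test 3 were lower and 2 higher. Their median log2 fold change was -0.09, against -0.02 for all tested genes. Alx4, an aristaless-like factor of facial mesenchyme, had 1057, 1063 and 1369 reads in DBA/2J against 2600 and 2395 in Gpnmb+, with a log2 fold change of -0.92 (SE 0.13, adjusted p = 0.0479 in edgeR). All DBA/2J pools lay far below the Gpnmb+ pools. The call did not hold with any of the 5 pools left out, where the log2 fold change ran from -1.05 to -0.85, and with the Xist covariate it was -0.27. Other genes with large values were not called by edgeR. They included Alx1 (log2 fold change -1.38, adjusted p = 0.0778 in edgeR), a relative of Alx4 at low counts, and the zinc finger factor Zic1 (1.65, 0.0946), whose counts of 5780, 6396 and 6946 in DBA/2J lay above 3230 and 1387 in Gpnmb+.

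**Figure D4:**
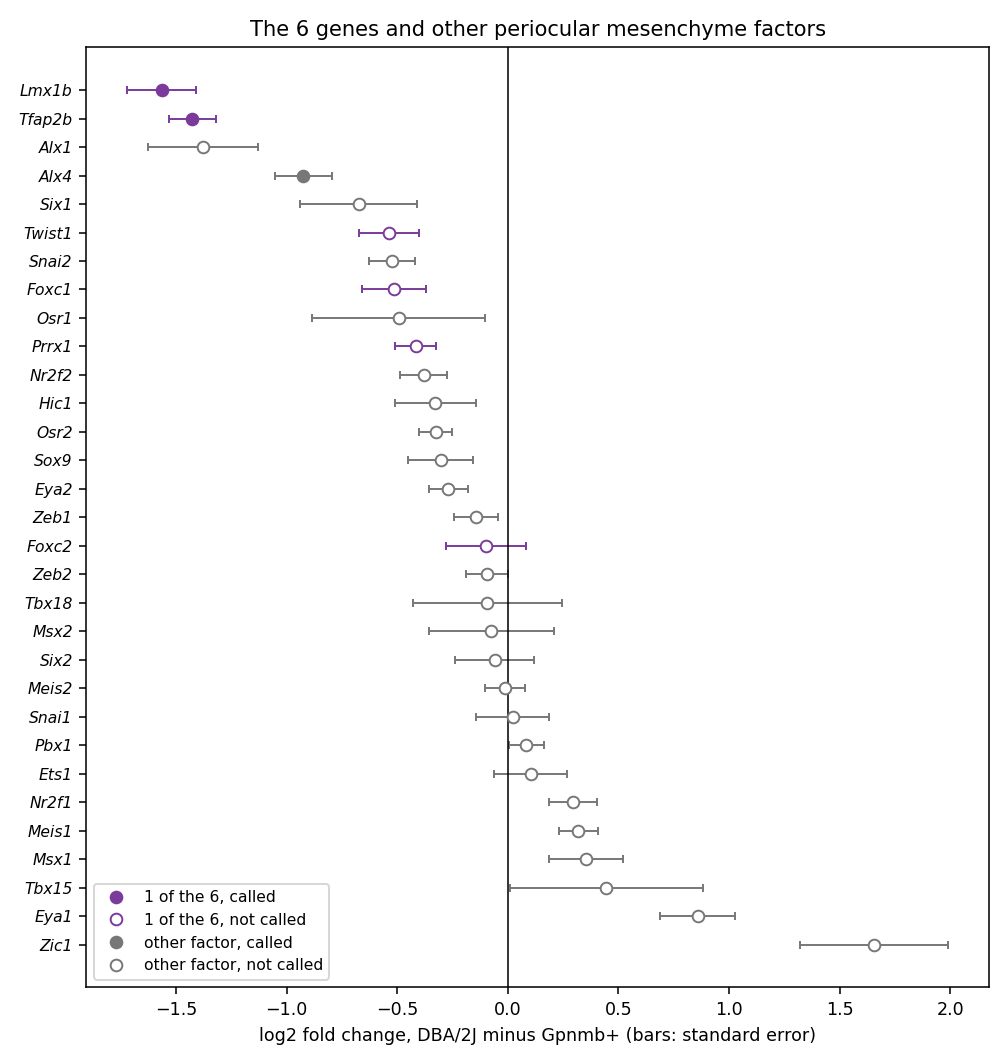
Log2 fold change (DBA/2J minus Gpnmb+, bars the standard error) of the 6 factors (purple) and of other periocular mesenchyme transcription factors (grey), filled where called. Lmx1b (-1.56) and Tfap2b (-1.43) are the lowest of those shown and, with Alx4, the genes shown that edgeR called, and Zic1 (1.65) is the highest.

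Relatives of the 6 within their gene families were mostly tested at low counts. Of 32 relatives 26 passed the count minimum, 15 below 0 and 11 above, with a median log2 fold change of -0.10, and edgeR and limma-voom called none. Without adjustment 3 were lower and 2 higher, and with DESeq2's Wald test 1 was lower and 2 higher. The forkhead gene Foxf2, which lies on chromosome 13 between Foxq1 and Foxc1 with its start 181 kb from that of Foxc1, had 236, 221 and 372 reads in DBA/2J against 649 and 832 in Gpnmb+ (log2 fold change -1.25, SE 0.26, adjusted p = 0.0975 in edgeR). Foxl1, 11.8 kb from Foxc2 on chromosome 8, had 24, 15 and 34 counts against 53 and 58 (-1.01, SE 0.38, adjusted p = 0.277 in edgeR). Lhx2, a LIM-homeodomain factor of the eye field, went the other way from Lmx1b with a log2 fold change of 1.04 (adjusted p = 0.0858 in edgeR). The closest relatives of the called genes, chosen for description after their values were seen, were Lmx1a at 14 to 60 counts per pool with overlapping groups, and Tfap2a, which gave 775, 685 and 597 reads in DBA/2J against 1076 and 1225 in Gpnmb+ (-0.57, adjusted p = 0.156 in edgeR).

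Genes encoding proteins that bind or inhibit these factors formed the next list, measured as RNA. It held the Ldb and Ssbp cofactors of LIM-homeodomain proteins, the E proteins that pair with TWIST1, the Id inhibitors and the Cited and Kctd regulators of AP-2, and all 21 were tested. There were 13 with log2 fold changes below 0 and 8 above, with a median of -0.05, and edgeR and limma-voom called none. Without adjustment 1 was lower and 0 higher, as with DESeq2's Wald test. Cited1, a coactivator of AP-2 proteins, had 37, 22 and 35 reads in DBA/2J against 131 and 111 in Gpnmb+, with a log2 fold change of -1.77 (SE 0.29) and an adjusted p of 0.0613 in edgeR. The LIM-only protein Lmo4 (log2 fold change -0.46, adjusted p = 0.303) and the helix-loop-helix inhibitor Id4 (-0.32, 0.615) had overlapping groups in the same edgeR fit.

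Among 22 genes of the signals that act on periocular mesenchyme (retinoic acid, TGF-β, BMP and Wnt), 9 had log2 fold changes below 0 and 13 above, with a median of 0.07. edgeR called Bmp4 higher and none lower, whereas 3 were lower and 3 higher without adjustment, and 3 lower and 2 higher with DESeq2's Wald test. Bmp4, a ligand whose loss of a single copy disturbs the anterior segment in mice, had 2639, 2581 and 2860 reads in DBA/2J against 1804 and 1419 in Gpnmb+. All DBA/2J pools lay above both Gpnmb+ pools, and the log2 fold change was 0.92 (SE 0.11, adjusted p = 0.0379 in edgeR). The call was lost without DBA/2J pool 1, 2 or 3 or Gpnmb+ pool 2, with log2 fold changes from 0.78 to 0.94, and with the Xist covariate, where it was 0.83 (SE 0.43). Aldh1a2, an enzyme that makes retinoic acid, had a log2 fold change of -0.97 (adjusted p = 0.117 in edgeR). For Dkk2, a Wnt antagonist, it was -0.88 (adjusted p = 0.0784 in edgeR), and the groups overlapped for neither gene. In this list 8 genes had every DBA/2J pool below both Gpnmb+ pools and 8 had every one above. Either order was found in 34.5% of all tested genes.

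Another list held 21 genes reported elsewhere, in part from other tissues, to lie downstream of 1 of the 6 factors. Of these, 12 had log2 fold changes below 0 and 9 above, with a median of -0.08, and edgeR and limma-voom called none. Without adjustment 4 were lower and 2 higher, and with DESeq2's Wald test 3 were lower and 1 higher. Keratocan (Kera), a corneal stroma proteoglycan whose gene depends on Lmx1b, had 452, 767 and 661 reads in DBA/2J against 1220 and 1800 in Gpnmb+ (log2 fold change -1.09, SE 0.28, adjusted p = 0.147 in edgeR). The Notch effector Hey2 had a log2 fold change of 0.79 (adjusted p = 0.161 in edgeR). The collagen genes Col4a3 and Col4a4, also tied to Lmx1b in kidney and named after their values were seen, had log2 fold changes of -0.73 and -0.65 with adjusted p-values of 0.221 and 0.185 in edgeR.

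Markers of the tissues that derive from or border on the periocular mesenchyme went in both directions. Trabecular meshwork markers summed to 1109 to 1333 CPM in DBA/2J and 1569 to 1589 CPM in Gpnmb+. Of the 7 tested (Chil1 was not analysed here) 5 were below 0, with Edn3 and Inmt called lower and Cyp1b1 called higher. Keratocyte markers summed to 4498 to 5834 CPM against 6542 to 6566 CPM, with 4 of 6 below 0 and none called by edgeR. Corneal endothelium markers overlapped in sum (2451 to 2580 CPM against 2547 to 2718 CPM), with 4 of 8 below 0, Slc4a11 called lower and Cdh2 called higher. Schwann cell markers summed to 305 to 353 CPM against 401 to 449 CPM, with 5 of 6 below 0 and 2 called lower, S100b among them. Markers of nonpigmented ciliary epithelium, from the ciliary body that the dissection was meant to remove, went the other way, with 7 of 7 at or above 0, Col9a1 and Six6 called higher, a median log2 fold change of 1.74 and sums of 1689 to 1988 CPM in DBA/2J against 376 to 650 CPM in Gpnmb+. Skeletal muscle markers were above 0 in 8 of 8 with sums of 211 to 494 CPM in DBA/2J against 132 to 201 CPM in Gpnmb+. Fibroblast markers also summed higher in DBA/2J, to 2208 to 2622 CPM against 1536 to 1753 CPM, with 2 of 5 below 0. The sums overlapped for markers of smooth muscle (689 to 826 CPM against 763 to 976 CPM, 6 of 7 below 0), melanocytes (2720 to 3689 CPM against 3036 to 3447 CPM, 5 of 7), vascular and lymphatic endothelium (404 to 540 CPM against 425 to 484 CPM, 4 of 8), corneal epithelium (5855 to 9251 CPM against 8461 to 10544 CPM, 3 of 5) and macrophages (586 to 804 CPM against 566 to 672 CPM, 1 of 5), and edgeR called none of these, of the fibroblast or of the skeletal muscle markers. None of these tested markers was at 0 in a whole group. The part of any of these tissues in the differences of the 6 factors was not tested.

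**Figure D5:**
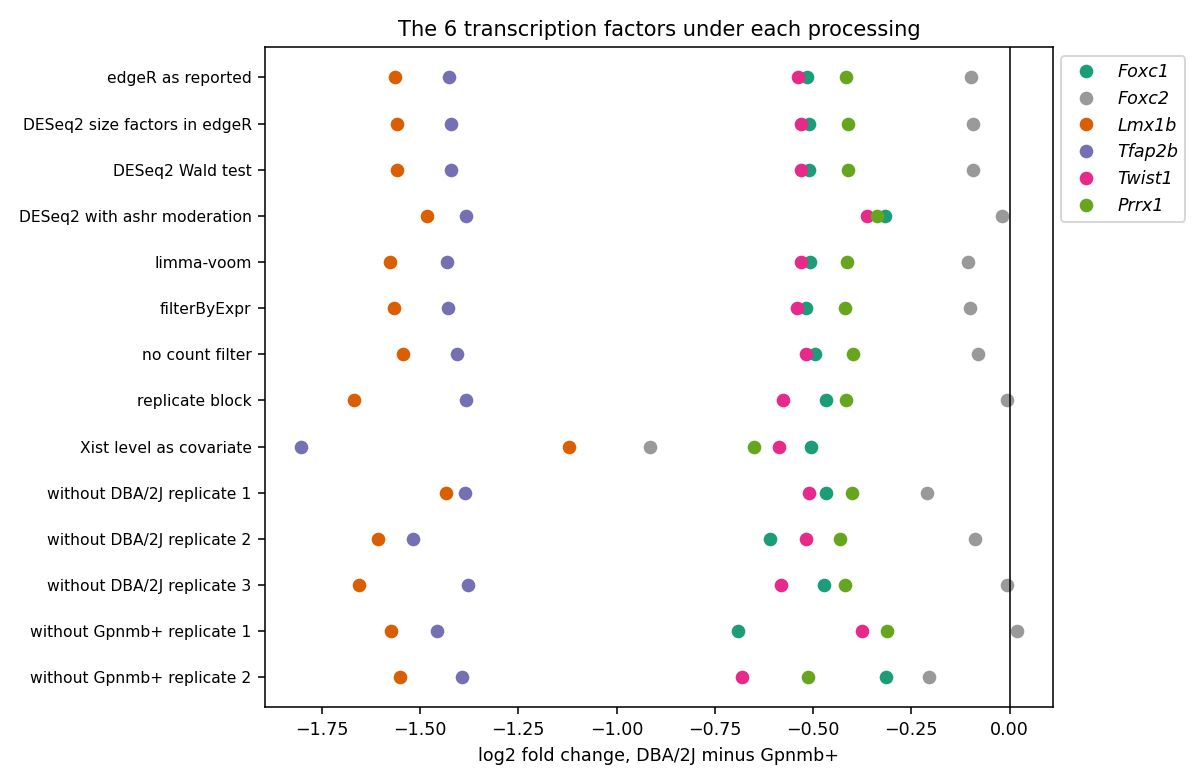
Log2 fold change (DBA/2J minus Gpnmb+) of each of the 6 factors under 14 ways of processing the same counts, from the edgeR fit as reported at the top to each pool left out at the bottom. Lmx1b and Tfap2b keep to the left of the other 4 in every row, the Xist covariate moves Lmx1b to -1.12 and Tfap2b to -1.80, and Foxc2 crosses 0 without Gpnmb+ pool 1.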

How the data were processed

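RNA from 3 DBA/2J and 2 Gpnmb+ pools was sequenced as 100-base read pairs. The authors used fastp for trimming and STAR for alignment to GRCm39, and their deposited table holds raw counts per gene of reads aligned to a single place, not normalized; the counting strand is not given in the sources used here. Each pool is described as 3 mice, although library names list 2 animals for each Gpnmb+ pool. Because pools are the replicates, p-values set the genotype difference against the spread between pools, not between mice. That spread was estimated with information from all tested genes. Names and positions came from GENCODE M39, which held 56323 of 56941 identifiers, and the 19713 genes that reached 10 counts in 1 or more pools were fitted with edgeR 4.0.16 (R 4.3.3) on TMM library sizes without covariates. The smallest p that an exact two-sided permutation test on the ranks of these pools allows is 0.2, so p-values come from this fit. The common biological coefficient of variation was 20.7%. Tested on simulated data for this comparison (19191 genes, 200 changed by 2 log2 units), the fit recovered 100% with 11 false calls. The changed genes were drawn from genes with high counts only, and changes as small as those of the 6 factors were not simulated. Alternatives were DESeq2 1.42.0 size factors and tests, ashr 2.2.63, limma-voom 3.58.1, other count filters, unadjusted p-values, no fold change minimum, the pool number as a block, an Xist covariate, another gene length and each pool left out. The 6 factors and all lists were chosen with earlier results of these data known. In each list the genes called and the 3 largest log2 fold changes were named, together with the 3 genes most like each factor, and other named genes are said to be chosen after their values were seen. Proteomics was not analysed here, and results for some genes of the lists are not reported here.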

Additional observations from a re-analysis of the deposited data

How the results depend on the processing

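Over 15 alternatives each, Lmx1b and Tfap2b were lower in DBA/2J in all, and the call was kept in 10. Unadjusted p-values and no fold change minimum only loosen the threshold on the reported fit, so no call could be lost there. DESeq2's Wald test and ashr share their p-values. With the Xist level as a covariate the log2 fold change was -1.12 for Lmx1b and -1.80 for Tfap2b, 0 of the 6 factors were called, and edgeR called 0 genes of 19713, with 764 at an unadjusted p under 0.05. Xist and genotype separate the same pools. With each pool left out in turn the number of the 6 called lower ran from 0 to 2, the log2 fold change from -1.66 to -1.43 for Lmx1b and from -1.52 to -1.38 for Tfap2b, and the genes called overall were 6, 1 and 17 without DBA/2J pools 1 to 3 and 217 and 2 without Gpnmb+ pools 1 and 2, against 157. Without a Gpnmb+ pool the remaining pool is assumed to vary like the DBA/2J pools. Foxc2 ran from -0.21 to 0.019 with a pool left out and reversed without Gpnmb+ pool 1, and was -0.92 with the Xist covariate; the cause was not tested. Over the 5 lists of related genes, 2 were called lower and 1 higher; the numbers were 11 and 7 with DESeq2's Wald test, 10 and 5 with ashr, 5 and 3 without a count filter, 16 and 9 without adjustment, 4 and 0 with the replicate block, 0 and 0 with the Xist covariate, and 0 and from 0 to 4 with a pool left out; the causes were not tested. Pool numbers are shared by the genotypes for pools 1 and 2, whose deviations correlated at 0.279 and 0.254. The 2 Gpnmb+ pools deviate from their mean by equal amounts in opposite directions. Each value therefore returns with its sign turned for the other Gpnmb+ pool, and the 2 values are not independent. Nothing in the labels says that a number marks a shared batch. With the replicate block the log2 fold change was -1.67 for Lmx1b and -1.38 for Tfap2b, both still called in edgeR (adjusted p = 0.0317 and 0.0183), and Bmp4 was not (adjusted p = 0.0505). The block raised the genes called overall from 157 to 220. DESeq2's Wald test called 927, ashr 733, limma-voom 190, no count filter 360 and unadjusted p-values 1710. With the longest transcript as length, the Gpnmb+ level moved to 5.73 CPM per kb for Lmx1b, 23.3 for Tfap2b and 28.5 for Prrx1.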

Other observations

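Several genes of the lists above came near the threshold of the adjusted p without being called by edgeR. They were chosen after their values were seen. Stra6, the cell-surface receptor for retinol-binding protein, had 1784, 2024 and 2258 reads in DBA/2J against 4633 and 3462 in Gpnmb+, with a log2 fold change of -0.82 (adjusted p = 0.0782 in edgeR). Angpt2, a vessel ligand that Foxc2 is known to regulate, had 518, 407 and 500 reads against 924 and 890, with a log2 fold change of -0.76 (adjusted p = 0.0704 in edgeR). Scx, a tendon factor related to Twist1, went the other way, with 551, 528 and 558 reads against 390 and 351, or 0.74 as a log2 fold change (adjusted p = 0.0593 in edgeR). Snai2, a zinc finger factor of neural crest, had 671, 725 and 738 reads against 1171 and 1147, with a log2 fold change of -0.52 (adjusted p = 0.0879 in edgeR). For all 4 the groups did not overlap, an order in either direction that 34.5% of all tested genes showed.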
